A study of Mus musculus with 9 samples.

Results

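Transcripts of the proteins that cut introns out of pre-mRNA, and of the nuclear RNA-binding proteins that steer them, were followed in 9 mouse samples. The genes were taken from the annotation of an Illumina whole-genome bead array by symbol alone, with no use of their values: the SR proteins (Srsf), the heterogeneous nuclear ribonucleoproteins (Hnrnp), the subunits of splicing factors SF3a and SF3b (Sf3a, Sf3b), the Sm and U snRNP proteins (Snrp) and the PRP factors (Prpf). The symbols matched 146 probes of 60 genes. Of these, 54 genes had a probe detected on at least 3 of the 9 arrays (detection p under 0.01) and were tested among 10800 genes in all: 9 of 10 Srsf, 19 of 20 Hnrnp, 8 of 9 Sf3, 7 of 9 Snrp and 11 of 12 Prpf genes. Hnrnpa3, Prpf4b, Sf3b1, Snrpb2, Snrpe and Srsf12 had no such probe and have no value below.

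Undifferentiated embryonic stem cells (mES), cultured cells that can still give rise to every tissue, came from a line that the labels call TBV2. Neonatal heart muscle cells (CMp) had been purified from hearts at the age of 1 day, and adult ones (CMa) from left ventricles at 2 months, with 3 arrays for each of the 3 groups. No group was treated, the labels give no genotype, strain or allele, and they name the cells of all 3 groups as primary cells that were purified and cultured. The series calls the samples of a group biological triplicates without naming animals or cultures, so a p-value here reflects how these samples vary, which may be technical. CMp and CMa differ both in age and in the region of the heart, and these cannot be told apart.

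Splicing is carried out by the spliceosome, which assembles anew on each intron from small nuclear ribonucleoprotein particles (snRNPs). Sm proteins form a ring around the RNA of most snRNPs, SF3a and SF3b let the U2 snRNP hold the branch point, and the PRP factors build and remodel the U4/U6.U5 tri-snRNP. SR proteins bind exons and mostly favour their inclusion, hnRNPs often oppose it, and the balance between them shapes the switch of sarcomere and calcium-handling transcripts to adult forms in the postnatal mouse heart.

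The promoters of 6 members are shown because these are the genes whose values open each family below: in each family the member with the smallest adjusted p for CMa against mES among those that were lower, and Prpf31, the PRP gene with the largest rise in that comparison. Each is 250 bases before to 50 bases after a RefSeq start on GRCm38.p6, read 5′ to 3′ on the gene's strand. They lie at chr5:115326927-115327226 (plus strand, Srsf9), chr14:52103972-52104271 (minus, Hnrnpc), chr4:124714611-124714910 (plus, Sf3a3), chr10:75517792-75518091 (plus, Snrpd3), chr3:95855836-95856135 (minus, Prpf3, 1 of its 2 windows) and chr7:3629735-3630034 (plus, Prpf31). Capitals mark matches on either strand to the GC box (GGGCGG), the ETS motif (CCGGAAG), the E-box (CACGTG), the CRE (TGACGTCA), the TATA box (TATAAA), or the NRF1 or YY1 motif.
Srsf9: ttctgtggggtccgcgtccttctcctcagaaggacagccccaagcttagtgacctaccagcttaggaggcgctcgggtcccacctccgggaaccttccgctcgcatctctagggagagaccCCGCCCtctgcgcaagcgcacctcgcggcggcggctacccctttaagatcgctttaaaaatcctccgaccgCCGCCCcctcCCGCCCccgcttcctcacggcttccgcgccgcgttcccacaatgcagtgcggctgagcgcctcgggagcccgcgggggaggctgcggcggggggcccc
Hnrnpc: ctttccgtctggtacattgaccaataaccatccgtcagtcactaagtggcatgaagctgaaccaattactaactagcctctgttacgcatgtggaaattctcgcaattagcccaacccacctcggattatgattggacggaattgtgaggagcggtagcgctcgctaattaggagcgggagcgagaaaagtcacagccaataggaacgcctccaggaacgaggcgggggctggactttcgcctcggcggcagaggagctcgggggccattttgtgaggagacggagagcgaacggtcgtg
Sf3a3: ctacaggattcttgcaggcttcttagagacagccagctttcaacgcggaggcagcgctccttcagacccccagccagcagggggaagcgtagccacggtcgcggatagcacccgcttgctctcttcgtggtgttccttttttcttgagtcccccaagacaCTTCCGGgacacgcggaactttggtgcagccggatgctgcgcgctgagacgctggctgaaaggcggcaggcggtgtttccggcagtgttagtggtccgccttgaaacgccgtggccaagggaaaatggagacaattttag
Snrpd3: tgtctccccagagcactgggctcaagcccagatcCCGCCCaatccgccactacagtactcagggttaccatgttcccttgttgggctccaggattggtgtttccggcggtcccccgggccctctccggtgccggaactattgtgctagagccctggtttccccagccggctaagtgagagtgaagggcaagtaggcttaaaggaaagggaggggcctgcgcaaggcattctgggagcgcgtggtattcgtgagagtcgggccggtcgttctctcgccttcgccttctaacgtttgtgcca
Prpf3: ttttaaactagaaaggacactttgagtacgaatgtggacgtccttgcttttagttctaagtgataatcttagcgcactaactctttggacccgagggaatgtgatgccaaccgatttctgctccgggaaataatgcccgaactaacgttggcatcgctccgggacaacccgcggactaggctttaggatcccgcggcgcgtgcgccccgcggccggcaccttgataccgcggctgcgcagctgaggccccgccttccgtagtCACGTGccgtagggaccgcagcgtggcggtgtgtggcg
Prpf31: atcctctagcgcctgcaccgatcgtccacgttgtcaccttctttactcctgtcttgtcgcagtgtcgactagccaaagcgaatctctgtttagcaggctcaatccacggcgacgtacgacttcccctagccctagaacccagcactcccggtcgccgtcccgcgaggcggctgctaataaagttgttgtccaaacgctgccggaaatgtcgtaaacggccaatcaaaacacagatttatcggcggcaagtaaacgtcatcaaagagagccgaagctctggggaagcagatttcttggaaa

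Srsf9 held 3 GC boxes, Snrpd3 held 1, Sf3a3 held 1 ETS motif and Prpf3 held 1 E-box, while the windows of Hnrnpc and Prpf31 held none of the 7 motifs. RefSeq windows were matched for 47 of the 54 tested members, 64 windows in all, and set beside 32851 windows of all genes. The ETS motif stood in 31.2% of the members' windows, against 8.86% of all windows, the GC box in 65.6%, against 35.7%, and the E-box in 15.6%, against 7.15%. The TATA box stood in 9.38% of the members' windows, against 13.6% of all, and the NRF1, CRE and YY1 motifs in 1.56%, 3.12% and 1.56%, against 0.971%, 1.79% and 0.633%. The members' windows were also richer in G and C, with a median of 60.5%, against 52.7% in all windows, and its part in the motif shares was not tested. A match shows the letters only, and no binding was measured.

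Levels are log2 intensities of 1 probe per gene, the brightest kept, after background correction and quantile normalization. A change is the difference of group means on that scale, tested with limma across all genes, and a gene is called where the Benjamini-Hochberg adjusted p is under 0.05. Values are relative to the other RNAs on the array, so fewer cells of a type and less RNA per cell cannot be told apart, and levels of different probes are not compared. Where 3 changes of a gene are given in a row, they stand for CMp against mES, then CMa against mES, then CMa against CMp. Arrays had median raw signals of 88.7 to 112.2 units, with 13781 to 17946 detected probes, fewest on the 3 CMa arrays. Cardiomyocyte markers (6 of 6 tested) summed to 138964 to 140363 intensity units per CMp array and 127670 to 157960 per CMa array, against 234 to 308 per mES array. Pluripotency markers (5 of 5) summed to 398 to 433, 1133 to 1567 and 26783 to 31515, and Nanog, Pou5f1 and Sox2 were undetected in both cardiomyocyte groups. Esrrb, of the same list, was detected on every array. It measured 13.28, 13.18 and 13.42 in mES, 8.25, 8.26 and 8.42 in CMp and 9.99, 10.15 and 10.52 in CMa. The higher marker sum in CMa than in CMp came mainly from Esrrb.

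In CMp against mES, most splicing transcripts were lower in the neonatal cardiomyocytes. The share was largest among the Sm and U snRNP proteins (7 of 7 lower) and the SF3 subunits (7 of 8), followed by the SR proteins (7 of 9), the hnRNPs (11 of 19) and the PRP factors (5 of 11). In all, 37 of the 54 members fell, 3 rose (Hnrnpul1, Prpf31 and Prpf39) and 14 did not pass the test. Of all genes tested, 38.8% were called lower, 35.4% higher and 74.1% either way. All 3 CMp arrays lay below all 3 mES arrays in 41 members, where 40.8% of all genes did. The median change of the members was −1.24, against −0.09 for all genes tested, and 30 members fell at least 2-fold, where 27.1% of all genes did.

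In CMa against mES, the fall covered more members and was larger. All 9 tested SR proteins, all 7 Sm and U snRNP proteins, 7 of 8 SF3 subunits, 15 of 19 hnRNPs and 6 of 11 PRP factors were lower, 44 members together. The 3 members that rose were Hnrnpul1, Prpf31 and Prpf18, and 7 did not pass. Over all genes 40.1% were called lower, 36.7% higher and 76.9% either way. The groups did not overlap in 44 members lower in CMa (41.8% of all genes) and 5 higher (38.3%). The members' median change was −1.88, against −0.07 for all genes, and 42 fell at least 2-fold, where 29.8% of all genes did.

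In CMa against CMp, the families came apart. SR proteins were lower again in 7 of 9 and hnRNPs in 9 of 19, with family medians of −1.02 and −0.65, while SF3 subunits (3 of 8), Sm and U snRNP proteins (3 of 7) and PRP factors (4 of 11) had medians of −0.20, −0.32 and 0.08. Together 26 members fell, 4 rose (Hnrnpul1, Sf3b6, Prpf31 and Prpf19) and 24 did not pass, beside 25.8% of all genes called lower, 26.3% higher and 52.2% either way. All CMa arrays lay below all CMp arrays in 26 members, where 27.3% of all genes did. At least 2-fold falls numbered 13, where 15.4% of all genes had one. The 3 comparisons share arrays pairwise, so their counts are not independent of each other. Whether the families differ from each other was not tested. When arrays are instead scaled to a common median, the median of all genes shifts to −0.59, −0.78 and −0.20 in the 3 comparisons, and that of the members to −1.81, −2.72 and −0.65. Of all calls 34.7%, 31.1% and 35.1% are then higher, where quantile normalization gives 47.7%, 47.8% and 50.5%.

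**Figure D1:**
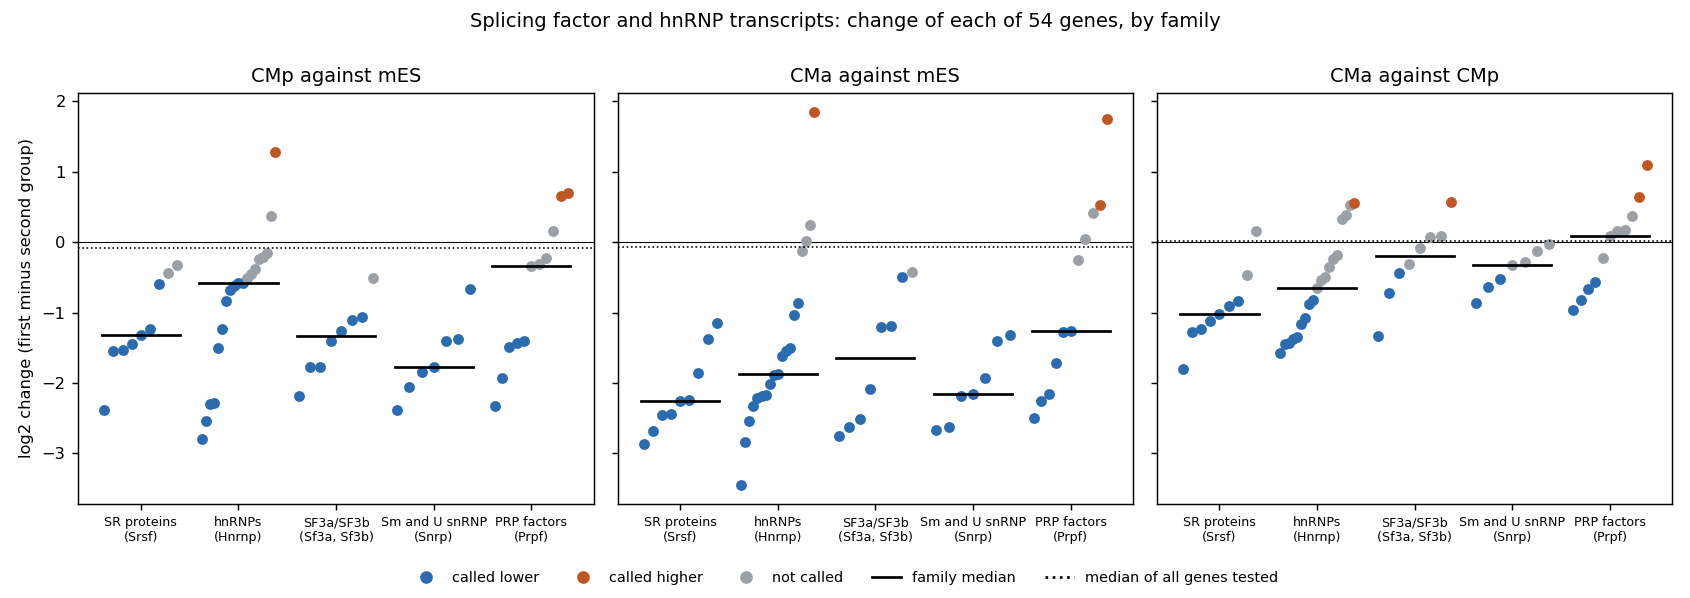
Log2 change (vertical axis) of each of the 54 tested genes by family, in a panel for each comparison. Blue points were called lower, orange higher and grey neither, bars are family medians and the dotted line is the median of all 10800 genes. The SR protein median lies at −1.32, −2.26 and −1.02 in the 3 panels and that of the PRP factors at −0.34, −1.26 and 0.08.

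Taken array by array, 22 of the 54 members stood in strict stage order, every mES array above every CMp array and every CMp array above every CMa array. Of all genes tested 10% did so. These were 7 SR proteins, 7 hnRNPs, 4 Sm or U snRNP proteins, 2 SF3 subunits and 2 PRP factors. Only Prpf31 had the opposite order among the members, which 12% of all genes had. The F-test across the 3 groups called 49 members (90.7%) and 87.8% of all genes. Of the 54 members, 46 were detected on all 9 arrays. The others, which passed the filter through some arrays only, were Hnrnpd, Hnrnph2, Hnrnph3, Hnrnpr, Hnrnpu, Hnrnpul1, Prpf39 and Sf3a2. A member seen in its high group alone had to differ, so the counts above describe the members and support nothing further.

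**Figure D2:**
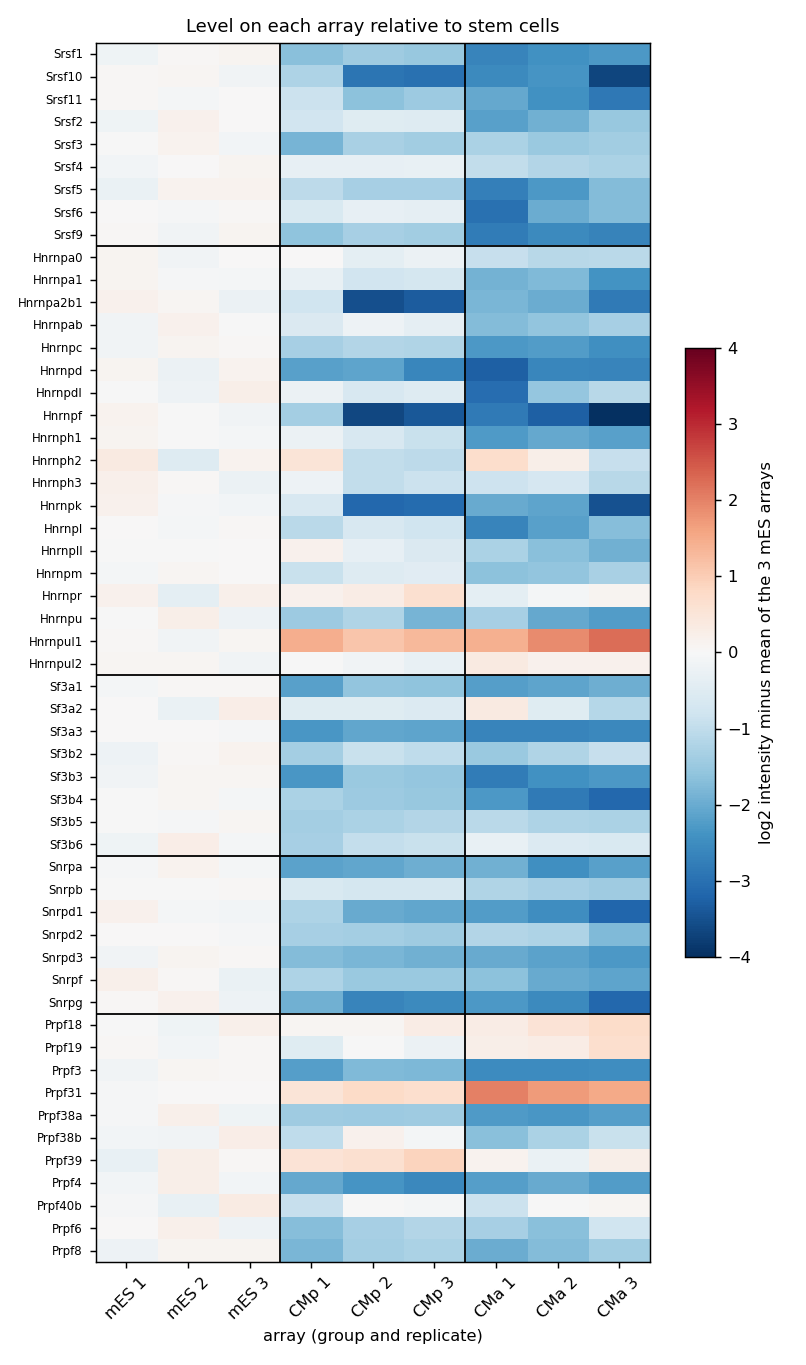
Each row is a tested gene, each column an array in stage order, and colour gives the log2 intensity minus the mean of the 3 mES arrays, from blue (lower) to red (higher). Lines part the families, and most rows turn a deeper blue from CMp to CMa, while Hnrnpul1 and Prpf31 run the other way.

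Srsf9, a close relative of Srsf1, had the smallest adjusted p of its family in CMa against mES. It measured 11.53, 11.35 and 11.60 on the mES arrays, 9.88, 10.15 and 10.11 on the CMp arrays and 8.69, 8.95 and 8.81 on the CMa arrays. The 3 groups do not overlap, with mES highest and CMa lowest. The change was −1.45 ± 0.16 (SE) in CMp against mES, −2.68 ± 0.16 in CMa against mES (limma adjusted p = 5.12e-08) and −1.23 ± 0.16 in CMa against CMp (adjusted p = 8.25e-05).

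Srsf1, which promotes use of 5′ splice sites and is needed in the mouse heart for postnatal splicing changes, showed the same order. Its levels were 13.22, 13.43 and 13.48 in mES, 11.71, 11.94 and 11.85 in CMp and 10.74, 10.97 and 11.07 in CMa. No array of a group reached the next group. The changes were −1.54, −2.45 and −0.91, each with an SE of 0.16 and with limma adjusted p = 5.98e-06, 1.17e-07 and 0.000711.

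Srsf2, Srsf4 and Srsf6 changed more between CMp and CMa than between mES and CMp on the probes used. Srsf6, which binds exonic enhancers, measured 10.93, 10.85 and 10.94 in mES, 10.29, 10.58 and 10.55 in CMp and 7.92, 8.93 and 9.16 in CMa. The CMp arrays lay close under mES and the CMa arrays far under both. Its change was −0.44 in CMp against mES (adjusted p = 0.17, not called) and −2.24 in CMa against mES (adjusted p = 2.11e-05). In CMa against CMp it was −1.80 (adjusted p = 0.000293), on the probes used the largest fall of any member between the cardiomyocyte groups. The other kept Srsf6 probe had −0.76, −1.23 and −0.47, none called. Srsf2, an activator of exon inclusion, averaged 11.58 ± 0.33 in CMa, against 12.85 ± 0.15 in CMp (SD, n = 3 each), a change of −1.27. Its change in CMp against mES was −0.59 (adjusted p = 0.0184), and −0.50 and not called when mES replicate 2 was left out. On a further Srsf2 probe the earlier step was the larger, at −1.54 then −0.30 (the last not called). Srsf4, whose RS domain is long, changed by −0.32 (not called), −1.15 and −0.83 in the same 3 comparisons. Srsf5 (−1.24, −2.26 and −1.02) and Srsf11 (−1.32, −2.44 and −1.12) fell at both steps on the probes used, all called. For Srsf5, the other kept probe had −0.53 in CMa against CMp (not called). For Srsf11, 2 of 4 kept probes were lower in CMp than in mES. The changes of these 4 ran from −1.43 to 0.68, with none called higher.

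Srsf3, the smallest SR protein, which also acts in mRNA export, took another course. It stood at 8.81, 8.98 and 8.71 in mES, 6.96, 7.53 and 7.43 in CMp and 7.58, 7.34 and 7.44 in CMa. Both cardiomyocyte groups were below every mES array and overlapped each other. The change was −1.53 in CMp against mES (adjusted p = 1.93e-05), −1.38 in CMa against mES (3.66e-05) and 0.15 in CMa against CMp (0.538).

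Among the hnRNPs, Hnrnpc, which binds uridine tracts and keeps cryptic exons out of mRNA, had the smallest adjusted p in CMa against mES. Its probe measured 14.24, 14.50 and 14.42 in mES, 13.05, 13.20 and 13.17 in CMp and 12.10, 12.16 and 11.94 in CMa. The groups do not overlap. The changes were −1.24 ± 0.15, −2.32 ± 0.15 and −1.08 ± 0.15 (SE), with adjusted p = 1.92e-05, 1.07e-07 and 0.000145. A further Hnrnpc probe was lower in both comparisons with mES (−1.66 and −1.11) and higher in CMa than in CMp (0.55, adjusted p = 0.029 among all kept probes), so the step between the cardiomyocyte groups has opposite signs on the 2 probes.

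**Figure D3:**
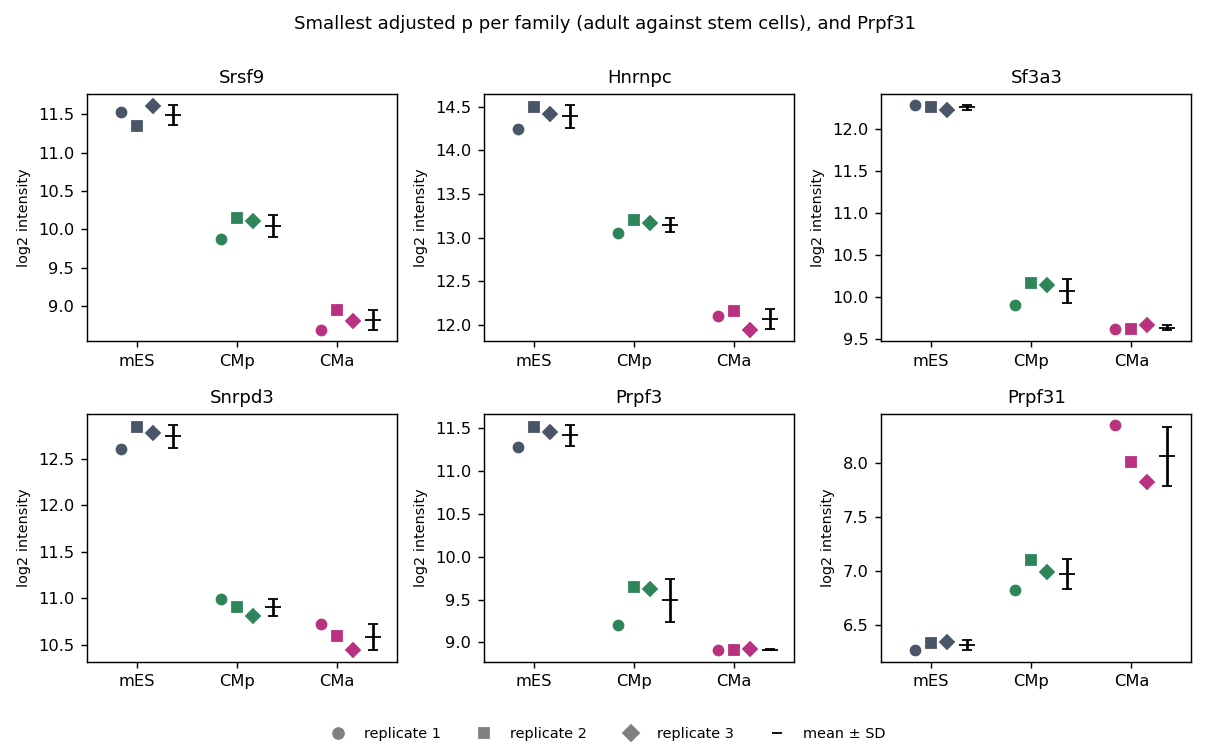
Log2 intensity of 6 members on each array, by stage, with marker shape for the replicate and the mean ± SD of 3 arrays beside each group. The first 5 panels show the smallest adjusted p per family for CMa against mES among members that fell, and the sixth shows Prpf31, whose CMa arrays (7.82 to 8.35) lie above its mES arrays (6.27 to 6.35).

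Hnrnph1, which binds runs of G, and Hnrnpa1, which binds exonic silencers and opposes Srsf1, had larger changes between CMp and CMa than between mES and CMp on the probes used. Hnrnph1 measured 12.06, 11.91 and 11.85 in mES, 11.70, 11.29 and 11.06 in CMp and 9.66, 9.89 and 9.77 in CMa. The CMp arrays lay just under mES and the CMa arrays more than 1 log2 unit under CMp. The changes were −0.58 (adjusted p = 0.0139), −2.17 (1.01e-06) and −1.58 (4.34e-05). On 2 of its 4 other kept probes the earlier step was the larger, at −1.67 then −0.77 (the last not called) and −1.46 then −0.93. Hnrnpa1 changed by −0.58, −2.02 and −1.44 (adjusted p = 0.0221, 3.81e-06 and 0.000161). A further Hnrnpa1 probe fell by 2.0 on the log2 scale in CMp against mES and had −1.24 in CMa against CMp (not called), and another had 0.24 (not called) and −1.04. The calls in CMp against mES were lost without mES replicate 1 or CMp replicate 3 for both genes, and without CMp replicate 2 for Hnrnpa1, with changes of −0.44 to −0.53 for Hnrnph1 and −0.49 to −0.53 for Hnrnpa1. In the authors' normalized matrix the Hnrnpa1 entry did not follow the scanner signal of its probe, and there its changes were −0.02, −0.02 and 0.01, none called.

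Several more hnRNPs were lower in CMa than in both other groups. Hnrnpl, which binds CA repeats, changed by −0.83, −2.18 and −1.35, and its paralog Hnrnpll, known for splicing of the leukocyte receptor Ptprc, by −0.24 (not called), −1.61 and −1.38. Hnrnpdl, a relative of Hnrnpd, averaged 9.15 ± 1.02 in CMa, against 10.59 ± 0.21 in CMp (SD, n = 3 each), a change of −1.43 (adjusted p = 0.0119) with a wide spread in CMa. Of its 3 kept probes 2 were called lower in CMa than in CMp, and the changes ran from −1.43 to −0.05. Hnrnpab and Hnrnpa0 fell by 1.54 and 1.03 on the log2 scale in CMa against mES, and Hnrnpm by 0.88 in CMa against CMp.

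Hnrnpd, which binds AU-rich elements of short-lived mRNAs, measured 7.86, 7.51 and 7.88 in mES, 5.59, 5.63 and 5.13 in CMp and 4.49, 5.13 and 5.12 in CMa, where it was detected on no array. Every mES array stood above both cardiomyocyte groups. It was at least 4.79-fold lower in CMa than in mES (adjusted p = 5.25e-07) and changed by −2.30 in CMp against mES (3.62e-06). Hnrnpu, the nuclear scaffold protein, was likewise detected on no CMa array and was at least 2.17-fold lower in CMa than in mES (adjusted p = 5.12e-05). Such bounds set an undetected value no lower than the dimmest detected probe on its array.

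Hnrnpul1, a relative of Hnrnpu with a role in the DNA damage response, was the hnRNP called higher. Its probe was undetected on all mES arrays (4.52, 4.32 and 4.56) and measured 5.93, 5.57 and 5.75 in CMp and 5.88, 6.36 and 6.70 in CMa. Both cardiomyocyte groups lay above every mES array and overlapped each other. It was at least 1.68-fold higher in CMp (adjusted p = 0.00024) and at least 2.48-fold higher in CMa (1.22e-05) than in mES, and 0.56 higher on the log2 scale in CMa than in CMp (0.0451), a call lost under 16 of 21 alternatives (0.37 to 0.57 without 1 of 7 arrays, all but CMp replicate 1 and CMa replicate 1). The gene has 4 kept probes, and for the other 3 no comparison was called. Of the rest, Hnrnpr and the probe used for Hnrnpul2 were called in no comparison, while the other kept Hnrnpul2 probe, detected on 4 arrays, was lower in CMp (−0.94) and CMa (−1.36) than in mES, and Hnrnph3 changed by −0.68 and −0.87 against mES and was not called between CMa and CMp.

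Hnrnpa2b1, Hnrnpf, Hnrnph2, Hnrnpk and Srsf10 were more than 1 log2 unit higher in CMp replicate 1 than in the mean of CMp replicates 2 and 3. That is 9.26% of the members and 4.16% of all genes tested. In the same genes CMa replicate 3 was the lowest CMa array, 0.94 (Hnrnpa2b1) to 1.40 (Hnrnpk) below the mean of CMa replicates 1 and 2. Over 1 log2 unit below that mean were 5 members (9.26%), namely Hnrnpf, Hnrnph2, Hnrnpk, Sf3a2 and Srsf10, and 1.86% of all genes. Hnrnpa2b1, a carrier of transported RNAs, measured 12.37, 12.26 and 11.95 in mES, 11.40, 8.69 and 8.87 in CMp and 10.38, 10.21 and 9.36 in CMa. CMp replicate 1 lies above every CMa array and the other CMp arrays below every CMa array. The changes were −2.54 ± 0.59 (SE, adjusted p = 0.0025) in CMp against mES, −2.21 ± 0.59 (0.00546) in CMa against mES and 0.33 ± 0.59 (0.675) in CMa against CMp. Without CMp replicate 1 the last was 1.20 (adjusted p = 0.00404) and the first was −3.41.

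Hnrnpk, which binds C-rich stretches, showed the same split, with 10.48, 7.99 and 8.05 in CMp and 9.10, 9.02 and 7.66 in CMa, against 11.29, 11.08 and 11.02 in mES. Hnrnpf, which binds G runs like Hnrnph1, had 9.18, 6.88 and 7.13 in CMp and 7.70, 7.27 and 6.28 in CMa, against 10.68, 10.52 and 10.39 in mES. Srsf10, an SR protein that can act as a repressor, had 8.26, 6.56 and 6.52 in CMp and 6.96, 7.13 and 5.83 in CMa, against 9.54, 9.58 and 9.37 in mES. In each, all cardiomyocyte arrays lay below all mES arrays and the cardiomyocyte groups overlapped. Against mES they changed by −2.29 (Hnrnpk), −2.80 (Hnrnpf) and −2.38 (Srsf10) in CMp and by −2.54, −3.45 and −2.86 in CMa, all called. Without CMp replicate 1 the changes in CMp were −3.11 (Hnrnpk), −3.52 (Hnrnpf) and −2.95 (Srsf10). Hnrnph2 was called in no comparison.

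**Figure D4:**
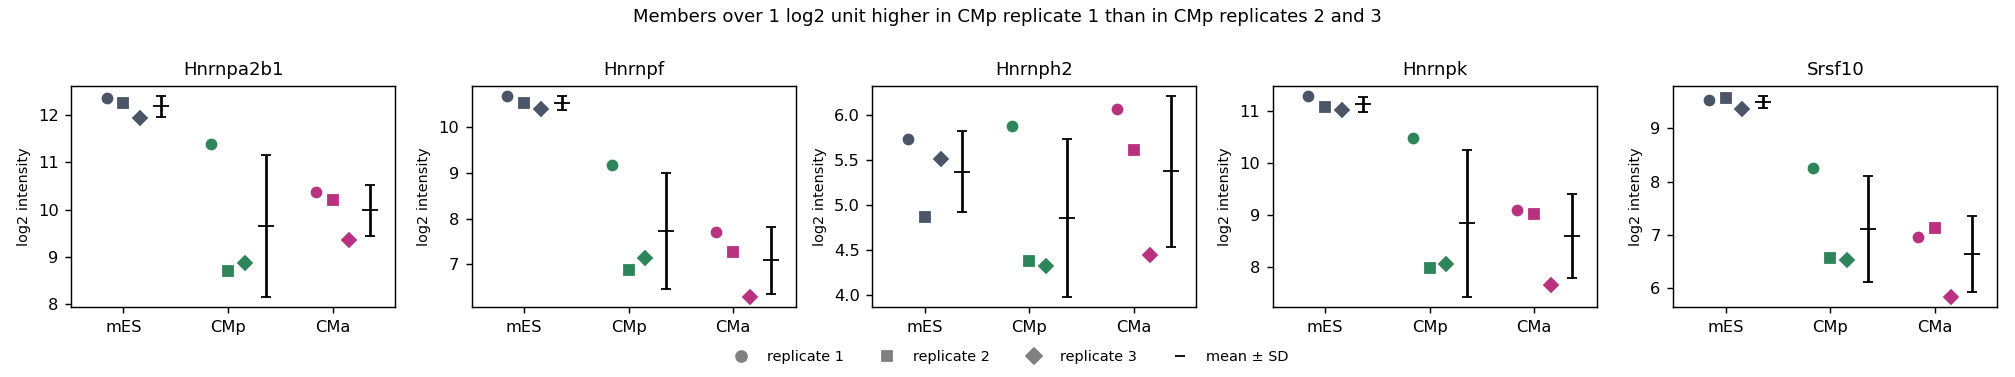
Log2 intensity on each array of the 5 members that were over 1 log2 unit higher in CMp replicate 1 (circle) than in the mean of CMp replicates 2 and 3, with mean ± SD of 3 arrays. The circle stands apart in each CMp group, and the SD of CMp reaches 1.51 for Hnrnpa2b1.

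The high level in CMp replicate 1 was not shared by all probes of a gene. Of 116 kept member probes, 18 (15.5%) showed it, against 7.57% of all kept probes, and they came from 16 genes. In all 14 of these genes that had several kept probes, at least 1 other kept probe did not. Hnrnph1 showed it on 3 of 5 kept probes and the rest of the 14 on 1. The other kept Hnrnpa2b1 probe measured 7.60, 7.26 and 7.06 in CMp and changed by −1.31 and −1.21 in CMp and CMa against mES, both called. Likewise a further Hnrnpk probe, at 7.41, 7.03 and 6.82 in CMp, changed by −0.87 and −0.90, and the third Hnrnpk probe by 0.07 and 0.12, not called. Of the 4 other Srsf10 probes, 3 were lower in CMp than in mES (−0.88 to −1.83) and 1 had 0.38 (not called). The reverse held for Srsf5, where the probe used gave 10.69, 10.39 and 10.40 in CMp and the further one 11.04, 9.02 and 9.11. The size of the change and the CMp spread thus differed between probes of a gene. The cause was not tested.

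Of the SF3a complex, which joins the U2 snRNP, Sf3a3 measured 12.28, 12.26 and 12.22 in mES, 9.91, 10.17 and 10.15 in CMp and 9.62, 9.62 and 9.67 in CMa. The groups do not overlap, and CMp and CMa lie close together. The changes were −2.18 ± 0.14 (adjusted p = 1.68e-07), −2.62 ± 0.14 (2.87e-08) and −0.44 ± 0.14 (0.0227). The last call was lost without CMp replicate 2 or 3 or CMa replicate 2 (−0.40 to −0.43). It was also lost with the mean over kept probes, and the other kept Sf3a3 probe had a change of 0 there (not called). Sf3a1 changed by −1.78, −2.09 and −0.31 (the last not called), and Sf3a2 was called in no comparison.

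Of the SF3b complex, Sf3b4, which contacts RNA upstream of the branch point, fell at both steps on the probe used. It measured 11.46, 11.55 and 11.41 in mES, 10.21, 10.01 and 9.97 in CMp and 9.19, 8.63 and 8.33 in CMa, again without overlap. The changes were −1.41 (adjusted p = 0.000109), −2.75 (4.25e-07) and −1.34 (0.000338). In CMa against CMp 1 of the 3 kept Sf3b4 probes was called lower, and the changes of the 3 ran from −1.34 to 0.12. That call was lost with the mean over kept probes. Sf3b3 changed by −1.78, −2.51 and −0.73, the last call being lost without CMp replicate 2 or 3 or CMa replicate 1 (−0.57 to −0.61), while Sf3b5 (−1.26, −1.20 and 0.07) and Sf3b2 (−1.10, −1.19 and −0.09) fell against mES and were not called between CMa and CMp. Sf3b6, which touches the branch point adenosine, was lower against mES by 1.06 in CMp and 0.49 in CMa and higher by 0.57 in CMa than in CMp (adjusted p = 0.0253). Its 2 other kept probes were lower in CMa than in CMp (−0.46 and −1.27, both called), so that rise rests on 1 probe, and the call was lost without CMp replicate 1 (0.43) or CMa replicate 1 (0.47). In CMp against mES those 2 probes were not called. The Sf3b6 call in CMa against mES was lost under 8 of 21 alternatives, among them leaving out mES replicate 2 or 3 or CMa replicate 2 or 3 (−0.36 to −0.53).

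Apart from Snrpb, whose 2 steps were about equal, the Sm proteins fell mainly between mES and CMp on the probes used. Snrpd3 measured 12.60, 12.84 and 12.77 in mES, 10.99, 10.91 and 10.81 in CMp and 10.72, 10.59 and 10.44 in CMa. The groups do not overlap, but CMp and CMa lie close together. The changes were −1.84 ± 0.15 (adjusted p = 1.02e-06), −2.16 ± 0.15 (2.16e-07) and −0.32 ± 0.15 (0.0986, not called). Snrpg changed by −2.38, −2.67 and −0.29 and Snrpd2 by −1.37, −1.40 and −0.03, neither called between CMa and CMp. Snrpd1 (−1.78, −2.63 and −0.86), Snrpf (−1.40, −1.93 and −0.52) and Snrpb (−0.67, −1.32 and −0.64) were called lower in all 3 comparisons. Of these calls in CMa against CMp, that of Snrpf was lost without any 1 of the CMp arrays or CMa replicate 2 or 3 (−0.43 to −0.56), and that of Snrpd1 without CMp replicate 1 or CMa replicate 3 (−0.59 each). That of Snrpb was lost with the mean over kept probes. In this comparison 1 of its 3 kept probes was called lower, and the changes of the 3 ran from −0.64 to −0.03.

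Snrpa, the U1 snRNP protein that binds a stem-loop of U1 RNA, followed the Sm pattern with 11.11, 11.31 and 11.08 in mES, 9.03, 9.10 and 9.21 in CMp and 9.25, 8.70 and 8.99 in CMa. Both cardiomyocyte groups lay about equally far below mES and overlapped. It changed by −2.06 (adjusted p = 1.19e-06), −2.19 (5.57e-07) and −0.13 (0.56). Snrnp70, the other main U1 protein, whose symbol places it outside these families, changed by −1.77, −3.16 and −1.40 in the same comparisons, all called.

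The PRP factors were the most mixed family. Prpf3, a U4/U6 snRNP protein, measured 11.28, 11.51 and 11.46 in mES, 9.20, 9.65 and 9.62 in CMp and 8.91, 8.91 and 8.92 in CMa, without overlap. It changed by −1.93 ± 0.17 (adjusted p = 1.42e-06), −2.50 ± 0.17 (1.37e-07) and −0.57 ± 0.17 (0.0133), the last call being lost without CMp replicate 2 (−0.50) or 3 (−0.51). That call was also lost with the mean over kept probes. In CMa against CMp 1 of the 5 kept Prpf3 probes was called lower, and the changes of the 5 ran from −0.57 to 0.34. Prpf4, its partner in that particle, measured 9.78, 10.11 and 9.76 in mES, 7.84, 7.51 and 7.32 in CMp and 7.67, 7.87 and 7.64 in CMa. Both cardiomyocyte groups lay more than 1 log2 unit below every mES array and overlapped each other. It changed by −2.33 (adjusted p = 6.89e-07), −2.16 (9.61e-07) and 0.17 (0.474). A further Prpf4 probe was higher in CMa than in mES by 0.56 (adjusted p = 0.0437).

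Prpf38a, which acts when the spliceosome is activated, changed by −1.43, −2.25 and −0.82. The last call was lost with the mean over kept probes, where 2 of 4 kept probes were called lower and the changes ran from −0.82 to 0.29. Prpf8, the U5 protein at the catalytic centre, stood at 10.72, 11.03 and 11.04 in mES, 9.09, 9.57 and 9.66 in CMp and 8.93, 9.19 and 9.53 in CMa. It was lower in both cardiomyocyte groups, which overlap. The changes were −1.49 (adjusted p = 7.59e-05), −1.72 (2.18e-05) and −0.23 (0.405). Prpf6, which bridges U5 and U4/U6, changed by −1.40, −1.26 and 0.15. Prpf38b fell only at the adult stage among these tests (−0.31, −1.27 and −0.96, the first not called, and the last lost without CMp replicate 2 or 3 or CMa replicate 1 or 2, at −0.73 to −0.97), and Prpf40b was called in no comparison.

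Prpf31, which joins U4/U6 to U5, was the PRP factor that rose in all 3 comparisons. Its probe measured 6.27, 6.34 and 6.35 in mES, 6.83, 7.10 and 6.99 in CMp and 8.35, 8.01 and 7.82 in CMa, without overlap and with CMa highest. The changes were 0.66 ± 0.17 (adjusted p = 0.0049), 1.74 ± 0.17 (3.37e-06) and 1.09 ± 0.17 (0.000357). That probe was designed on a cDNA clone, per the array annotation. The 2 other kept probes, designed on RefSeq mRNA and detected on 3 arrays each, were lower in CMp than in mES (−1.05 and −0.82) and in CMa than in mES (−0.82 and −0.79), all 4 called. The gene's direction against mES therefore depends on the probe. With arrays scaled to a common median the probe used gave 0.21 in CMp against mES (adjusted p = 0.249).

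Prpf18, an effector of the later catalytic step, measured 9.59, 9.83 and 10.01 in CMa, against 9.27, 9.10 and 9.49 in mES, all CMa arrays being higher. Its change was 0.52 (adjusted p = 0.0169), and −0.39, not called, where arrays were scaled to a common median. The call was also lost without mES replicate 2 or CMa replicate 3 (0.42 and 0.43). Prpf39, a U1-associated factor, rose by 0.69 in CMp against mES (0.00892) and fell by 0.66 in CMa against CMp (0.0177), and its change in CMa against mES was 0.04, or −0.57 under the common median. Its call in CMa against CMp was lost without CMp replicate 3 (−0.55) or CMa replicate 2 (−0.50). Prpf19, a ubiquitin ligase of the spliceosome, stood at 12.47, 12.53 and 12.91 in CMa, against 11.76, 12.22 and 12.01 in CMp, without overlap, a rise of 0.64 (0.0119). In CMa against mES 1 Prpf19 probe was called higher (0.59) and another lower (−0.73), while the probe used (0.41) was not called.

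**Figure D5:**
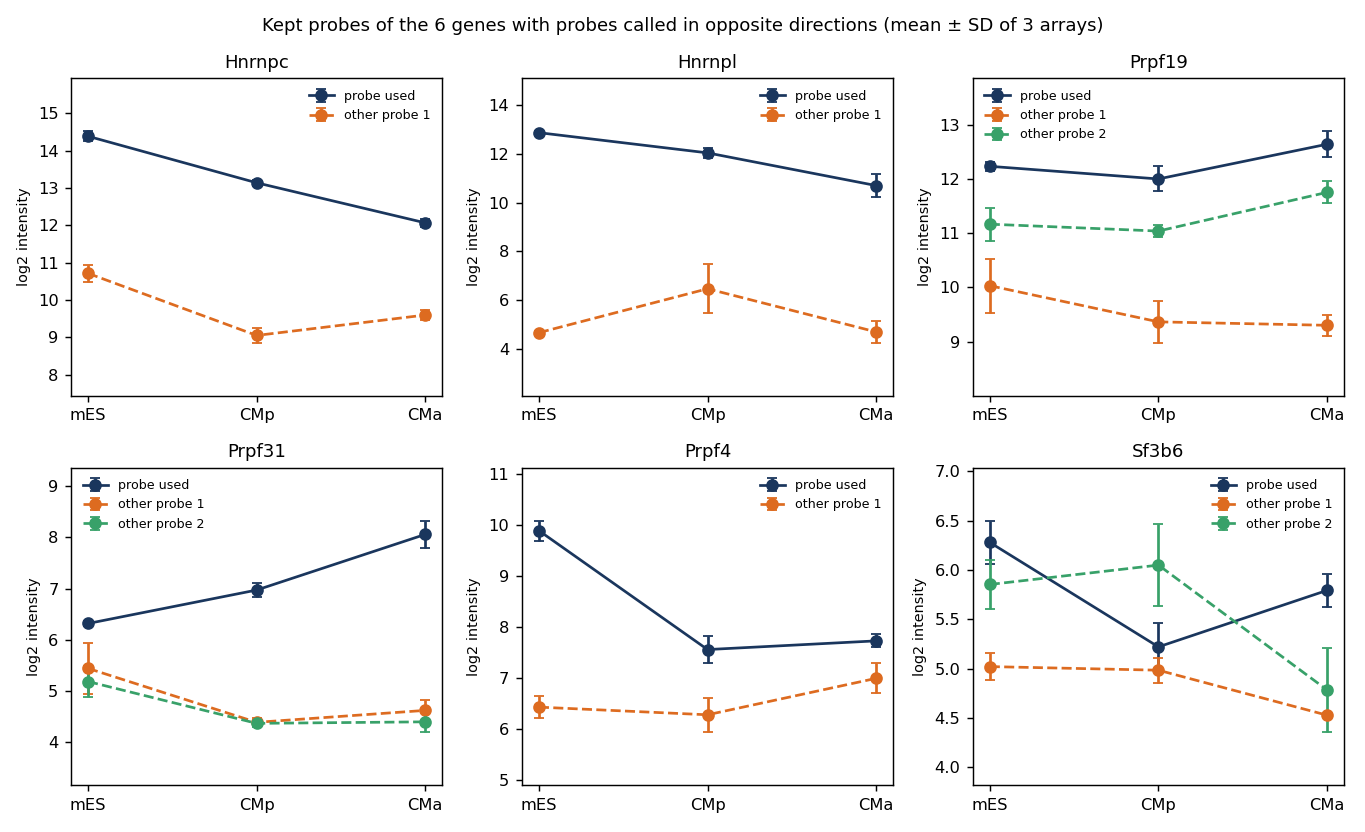
Mean log2 intensity ± SD of 3 arrays, by stage, for every kept probe of the 6 genes with probes called in opposite directions in a comparison. The solid line is the probe used for the gene and dashed lines are its other kept probes, and for Prpf31 the solid line climbs through the stages while both dashed lines lie lower in CMp and CMa than in mES.

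Among the members, calls in opposite directions occurred in these genes, while kept probes of some other members differed in whether they were called. Of 36 members with at least 2 kept probes, 2 had probes called in opposite directions in CMp against mES (Hnrnpl and Prpf31), 3 in CMa against mES (Prpf31, Prpf4 and Prpf19) and 2 in CMa against CMp (Hnrnpc and Sf3b6). Over all 4158 genes with several kept probes the shares were 3.49%, 4.21% and 1.88%. For Hnrnpl the further probe, designed on a cDNA clone and detected on 3 arrays, was 1.81 higher in CMp than in mES, where the probe used was 0.83 lower. Counted by probe, 80 of the 116 kept member probes were lower and 4 higher in CMp against mES, where 38.7% and 32.4% of all 19707 kept probes were. In CMa against mES 95 were lower and 5 higher (40.3% and 33.2% of all kept probes), and in CMa against CMp 47 and 6 (23.8% and 23.2%).

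Genes outside the 5 families that act with these members were read from lists of 100 genes, of which 87 were tested. In the 3 comparisons, in the same order as before, 63, 73 and 28 of them were lower and 8, 6 and 8 higher, with median changes of −1.07, −1.45 and −0.28. The lower shares are 72.4%, 83.9% and 32.2%, where 38.8%, 40.1% and 25.8% of all genes were called lower, so that between CMa and CMp the share lies near that of all genes. The SMN complex and its partners, which load Sm proteins onto snRNA, were lower in 15 of 15 in CMp and 14 of 15 in CMa against mES. Gemin4 changed by −4.16 and −3.78 and Gemin6 by −3.44 and −3.04 in those comparisons, and Smn1 itself by −1.92 and −2.56. Between CMa and CMp only Smn1 of this list fell (−0.64), while Snupn, which carries assembled snRNPs to the nucleus, rose by 1.05 and Gemin2 and Gemin7 rose by 0.71 and 0.84.

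The LSm proteins, most of which form the ring on U6 RNA, were lower in 7 of 7 in both comparisons with mES, led by Lsm5 (−2.10 and −2.48). In CMa against CMp 2 of 7 fell (28.6%, near the share of all genes), Lsm4 (−0.64) and Lsm6 (−0.48). Of 33 other spliceosome proteins 26 fell in CMp and 29 in CMa against mES, among them Ppih, a tri-snRNP cyclophilin (−3.06 and −3.15), and Eftud2, the U5 GTPase (−2.48 and −2.82). Slu7, a factor of the later catalytic step, and Crnkl1, the counterpart of yeast Clf1, rose in both (1.03 and 1.48 for Slu7, 0.58 and 1.49 for Crnkl1). Of the 3 tested exon junction proteins, Eif4a3 changed by −1.21 and −1.93 and Rbm8a by −0.94 and −0.93.

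Of 22 SR-related and hnRNP-related proteins, 10 fell in CMp against mES, 17 in CMa against mES and 11 in CMa against CMp, with 3, 2 and 1 higher. The lower shares are 45.5%, 77.3% and 50%, where 38.8%, 40.1% and 25.8% of all genes were called lower. In CMp against mES the share thus lies near that of all genes. Ptbp1, the repressor that binds polypyrimidine tracts and is also known as hnRNP I, stood at 12.45, 12.54 and 12.38 in mES, 11.16, 11.74 and 11.68 in CMp and 9.13, 9.31 and 9.24 in CMa. The groups do not overlap and the adult arrays are by far the lowest. Its changes were −0.93 (adjusted p = 0.000694), −3.23 (3.44e-08) and −2.30 (2.64e-06). Its paralog Ptbp2 was 1.94 higher in CMp than in mES (0.000594) and 1.43 lower in CMa than in CMp (0.00709). Ptbp2 was detected on all 3 CMp arrays but on only 1 mES array (5.38, 4.93 and 4.71) and 2 CMa arrays (4.78, 5.47 and 6.29). Rbmx, also known as hnRNP G, rose by 2.34 in CMp and 1.81 in CMa against mES, and the SR-like Tra2a changed by −1.51, −3.04 and −1.52.

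The kinases that phosphorylate SR proteins moved both ways: of 7, 3 rose and 3 fell in CMp against mES, and 2 rose and 3 fell in CMa against mES. The lower share is 42.9% in both, near the 38.8% and 40.1% of all genes called lower. The higher shares are 42.9% and 28.6%, where 35.4% and 36.7% of all genes were called higher. Srpk3, a kinase known from striated muscle, was undetected in mES (4.43, 4.64 and 4.44) and measured 10.04, 9.88 and 10.22 in CMp and 9.73, 10.03 and 10.73 in CMa. It was at least 33-fold higher in CMp (adjusted p = 6.76e-09) and at least 35.9-fold higher in CMa (4.04e-09) than in mES, and the cardiomyocyte groups overlapped. Srpk1 changed by −1.67 and −1.96. Clk3 and Clk4 rose by 1.05 and 1.29 in CMp against mES and fell by 1.06 and 1.00 in CMa against CMp.

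Markers of other processes and cells moved between the same groups. Proliferation markers (8 of 10 tested) summed to 20303 to 20565 units per mES array, 2605 to 2929 per CMp array and 292 to 380 per CMa array, in the order in which many members fell. Ccna2 was undetected in CMp, and Ccna2, Mcm3 and Aurkb were undetected in CMa. Fibroblast markers (5 of 6) summed to 106 to 112, 16146 to 19519 and 4397 to 5545, endothelial markers (5 of 6) to 362 to 503, 12163 to 21316 and 3992 to 5655, and smooth muscle markers (3 of 4) to 1668 to 3123, 28951 to 30180 and 4771 to 5662. All 5 fibroblast markers were undetected in mES, and Col1a2 and the smooth muscle marker Tagln were undetected in CMa. The smooth muscle sums came mainly from Acta2, at 14.81 to 14.87 in CMp, against 10.64 to 11.57 in mES. Myh11 rose with it (6.64 to 7.85, against 4.38 to 4.69), while Tagln did not (5.29 to 5.42, against 5.40 to 5.81). Leukocyte markers (3 of 5) summed to 61 to 66, 598 to 1046 and 187 to 448 and erythroid markers (3 of 4) to 60 to 76, 61904 to 69735 and 5658 to 10831, with all 3 leukocyte markers undetected in mES. No member was measured in a single cell type, and the part of these cells or of cell division in the members' changes was not tested.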

How the data were processed

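RNA of 3 mES, 3 CMp and 3 CMa samples was extracted with Trizol and hybridised as biotin-labelled cRNA to Illumina bead arrays, per the labels' protocols. The deposited scanner table gives, per the file headers, a linear intensity (average signal) and a detection p-value for each of 45281 probes. It is not normalized. The authors' deposited series matrix holds normalized log2 values of the same arrays, and lumi is named in the submitters' processing notes with no version. It served as an alternative, since 3775 of its entries, 19 of them among the 146 member probes, lie over 0.1 log2 units off the curve that relates it to the scanner signal. For tested members these were Hnrnpa0, Hnrnpa1, Hnrnpa2b1, Sf3b6, Srsf10 and Srsf11.

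From the intensities, background was corrected with limma 3.58.1 in R 4.3.3 (nec, using the deposited detection p-values, offset 16), followed by quantile normalization and log2. A probe was kept (19707 in all) if 3 or more of the 9 arrays gave it a detection p under 0.01. Each gene was read from its brightest kept probe with a single symbol, giving 10800 genes. Values of single further probes carry p-values adjusted over all kept probes. A linear model over all 9 arrays (lmFit, eBayes) gave log2 changes, standard errors and Benjamini-Hochberg adjusted p-values per comparison, called under 0.05. Where a gene was undetected in a whole group, its fold is a bound ("at least"): the mean of the detected group over the mean of, per array, the higher of the lowest detected signal and the probe's own. The number of arrays limits the precision, as do the probe chosen and the scaling.

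Genes were named by rule: per family and comparison the 3 called members with the largest change, called members against their family's majority, members whose probes conflict, and some anchors such as Srsf1, Hnrnpa1 and Prpf8. Other members complete the account. The members and lists were chosen with earlier results of these data known. Replicate numbers are shared between groups, and the correlations of same-numbered samples' deviations ran from −0.07 to 0.39. Those of CMp and CMa were 0.35 for number 1, −0.07 for number 2 and 0.39 for number 3, so not every pair was over 0.1 and the numbers were not treated as pairs. Alternatives changed the background, scaling, filter, probe choice, source of values, samples in the model and the threshold, and left out each array in turn. Promoter windows came from RefSeq tables on GRCm38.p6. Probe positions and protein sequences were not used here.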

Additional observations from a re-analysis of the deposited data

How the results depend on the processing

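Across 22 alternatives the members called lower numbered 30 to 49 in CMp against mES, 42 to 48 in CMa against mES and 13 to 28 in CMa against CMp. The share of all genes called lower moved with the setting too. It was highest with a common median (51.7%, 55.5% and 34% in the 3 comparisons). With no filter it was lowest (22.8%, 23.6% and 14.3%), where the main processing gave 38.8%, 40.1% and 25.8%. Leaving out each array in turn gave 34 to 39, 43 to 45 and 21 to 26 lower members, 3, 2 to 4 and 3 to 5 higher ones, and a median change in CMa against CMp of −0.58 to −0.44. A 2-fold threshold left 13 members lower and 1 higher in CMa than in CMp and 1 higher in CMp than in mES, and of the other splicing genes 13 lower and 2 higher in CMa than in CMp. Of all genes 15.4% were then lower and 14.1% higher in CMa than in CMp. With a common median, 2 members were higher in CMa than in CMp, and 47 other splicing genes lower and 5 higher there, and 5 were higher in CMp than in mES. With the mean over kept probes 2 members were higher in CMa than in CMp and 1 in CMp than in mES. The members' median changes in the 3 comparisons, in the same order, were −1.81, −2.72 and −0.65 with a common median, −0.70, −1.39 and −0.25 in the authors' matrix, −0.94, −1.66 and −0.40 with no filter, −1.12, −1.67 and −0.38 with the mean over kept probes and −1.12, −1.66 and −0.31 with no background correction. An offset of 50 gave −1.15 in CMp against mES and −0.39 in CMa against CMp. Array subsets added after seeing the data gave −1.05 in CMp against mES and 1 higher member (mES with CMp 1, CMa 1 and CMa 2) and a median log2 change of members, CMa against mES, of −1.74 (mES with CMp 2, CMp 3 and CMa 3).

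Direction changed for Hnrnpa1 (0.01) and Sf3b6 (−0.07) in CMa against CMp in the authors' matrix, for Sf3b6 (−0.38) in that comparison and Hnrnpl (0.49) and Prpf31 (−0.40) in CMp against mES with the mean over kept probes, and, with a common median, for Prpf18 (−0.39 in CMa and −0.60 in CMp) and Prpf39 (−0.57 in CMa) against mES. For Hnrnpa2b1 the change in CMa against CMp was −1.10 in mES with CMp 1, CMa 1 and CMa 2, and 1.20 without CMp replicate 1. The causes were not tested. Of 2331 values for 37 named genes, 2198 kept the call or stayed not called, 90 lost the call, 34 gained it and 9 changed direction. A change of direction was counted only where the main or the alternative value was called. Sign changes between values that were both not called are among the 2198, as for Hnrnpk in CMa against CMp (up to 0.58). With the replicate block, 37, 44 and 26 members were lower and 3, 3 and 4 higher, the same counts as without it. The slide as a block was not run because the columns used here give no slide. Calls rest on 3 arrays a group, and genes near background have bounds only.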
